A study of Mus musculus with 2 samples.

Results

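Neurofilaments, stathmins and the microtubule-associated proteins of growing axons were followed through the cells of the embryonic mouse retina with 10 genes, which were *Nefl*, *Nefm*, *Ina*, *Gap43*, *Stmn2*, *Stmn3*, *Stmn4*, *Mapt*, *Map1b* and *Dcx*. They were chosen by symbol from the 28692 genes of the count matrices, and each symbol was carried by a single gene. These genes and a further list compared below were chosen with earlier results of these data known. Counts set beside all genes therefore describe these lists and are no test of enrichment. Retinas came from *LHX4::GFP* mice at E14.5, heterozygous carriers of a bacterial artificial chromosome insertion (Tg(Lhx4::EGFP)KN199Gsat/Mmucd) in which *Lhx4* sequence drives GFP, so that both groups carried the transgene. Retinas of 2 litters went into a single suspension, which was sorted into GFP+ cells, labelled as cone photoreceptors, and GFP− cells, labelled as the remaining retinal cells. Each gate gave 1 droplet library, in which every captured transcript is counted once by its unique molecular identifier (UMI). Because there was 1 library per gate, no test between groups was possible, and every interval given here covers counting error only.

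The GFP+ library held 3728 cells and 16010591 UMIs, and its median cell 3906.5. The GFP− library held 4445 cells and 46778924 UMIs, of which 4444 cells were kept (median 9937.5 UMIs). *Lhx4* itself, the gene that the reporter follows, was at 137 UMIs per 1000000 (CPM) in the GFP+ library and at 1.15 CPM in the GFP− library. The libraries had 20 cell barcodes in common. Cells were placed in classes from marker UMIs that include none of the 10 genes. This gave 1928 progenitor cells, 360 precursors with at least 2 UMIs of *Atoh7* (a factor that opens the ganglion cell path), 1135 ganglion cells, 344 amacrine cells and 3866 cones, while 539 cells had no class. Of the cones, 3652 came from the GFP+ library and 214 from the GFP− library. Only 4 ganglion and 10 amacrine cells came from the GFP+ library, so ganglion cells against cones is at the same time a comparison of libraries. No upper limit on genes per cell was set, and 605 of the ganglion cells (53.3%) held more than 3500 genes.

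The marker lists that set the classes were also summed over them. High own-list and low other-list sums among the neuron classes follow from the class rule, so they do not test the names. The 7 ganglion markers summed to 4206 CPM in the ganglion class and to 38.3 CPM in the cones, the 5 amacrine markers to 1885 CPM in the amacrine class and 5.76 CPM in the ganglion class, and the 9 cone markers to 6479 CPM in the cones and 38.4 CPM in the ganglion class. The ganglion class was not uniform: its 5 progenitor markers summed to 756 CPM, against 4668 CPM in the progenitor class. In the 125 ganglion-class cells without a UMI of *Isl1*, a homeobox factor of ganglion cells, they summed to 4050 CPM. The amacrine class also held 1000 CPM of the 3 horizontal cell markers, and 292 CPM of the 2 endothelial markers, of which 290 CPM were *Cldn5* and 2.43 CPM were *Pecam1*. Its progenitor markers summed to 435 CPM, and 315 of its 344 cells held a UMI of *Ptf1a*. The study placed amacrine and horizontal cells in a joint cluster, because their transcriptomes are difficult to tell apart early in development.

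Neurons build long processes from 2 filament systems. Neurofilaments, assembled from light, medium and other chains together with α-internexin, set the caliber of the axon, while microtubules carry transport along it and are bound by tau, MAP1B and doublecortin. Stathmins bind free tubulin dimers, and GAP-43 lies under the membrane of the growth cone. In the retina only ganglion cells send an axon out of the eye, through the optic nerve, whereas amacrine cells and photoreceptors connect within the retina.

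The stathmins are close relatives and were counted as separate genes. Over the aligned coding bases, *Stmn2* was 73.5% identical to *Stmn3* and 68.0% identical to *Stmn4*, and *Stmn3* was 68.1% identical to *Stmn4*. The most alike stretch of 60 coding bases is shown because it lies near the start of the coding sequence, in the extension that anchors these stathmins to membranes. Capitals mark the 42 bases that all 3 genes share, and the sequences were read from the GENCODE M21 transcripts of GRCm38.

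Stmn2: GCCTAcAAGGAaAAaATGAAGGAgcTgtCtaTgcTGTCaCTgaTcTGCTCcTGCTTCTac
Stmn3: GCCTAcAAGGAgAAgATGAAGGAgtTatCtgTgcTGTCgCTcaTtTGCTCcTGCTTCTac
Stmn4: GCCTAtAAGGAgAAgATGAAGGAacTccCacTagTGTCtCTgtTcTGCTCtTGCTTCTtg

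The stretch runs from coding base 19 to 78 in *Stmn2* and *Stmn3* and from 13 to 72 in *Stmn4*. The libraries count the 3′ ends of transcripts, which lie outside these coding bases.

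The RefSeq promoter table for GRCm38.p6 held 4 of the 10 genes (*Ina*, *Stmn3*, *Map1b* and *Dcx*). The 250 bases before the start are printed for *Ina* and *Stmn3*, since no annotated exon overlaps them and since both genes stood well above the progenitor level in ganglion, amacrine and cone cells. Each was searched on both strands for TATAAA, for TAATCC (a site of the OTX2 and CRX type), for CAGCTG and CAGATG (E-boxes, bound by bHLH factors) and for CAGCACC (part of the element bound by REST). Matches are in capitals.

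Ina: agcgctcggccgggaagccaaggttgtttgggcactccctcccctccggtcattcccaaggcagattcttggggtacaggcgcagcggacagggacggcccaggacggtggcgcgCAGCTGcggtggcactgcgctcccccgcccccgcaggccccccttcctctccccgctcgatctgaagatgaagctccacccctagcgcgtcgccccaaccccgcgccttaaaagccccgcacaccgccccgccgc
Stmn3: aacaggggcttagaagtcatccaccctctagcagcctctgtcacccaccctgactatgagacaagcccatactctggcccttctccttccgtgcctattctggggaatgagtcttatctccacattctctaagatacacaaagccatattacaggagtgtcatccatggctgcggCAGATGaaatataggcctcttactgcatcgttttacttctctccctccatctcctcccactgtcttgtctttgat

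The *Ina* window lies at chr19:47014431-47014680 on the plus strand and the *Stmn3* window at chr2:181314501-181314750 on the minus strand. The *Ina* window held 1 CAGCTG, beginning at position -135 from the start, and none of the other motifs. The *Stmn3* window held 1 CAGATG, at position -75, and none of the others. Among 27025 promoters, 12.8% held CAGCTG, 14.5% CAGATG, 13% TATAAA, 6.38% TAATCC and 5.70% CAGCACC in the same length of sequence, so neither match was rare. The GC content was 70.8% in the *Ina* window and 48.8% in the *Stmn3* window.

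Between the gates, 8 of the 10 genes were at least 2-fold higher in the GFP− library. The same was true of 15.4% of the 13305 genes with at least 50 UMIs in both libraries together. All genes tested had a median log2 ratio of -0.27, and the 10 genes had a median of 2.63. *Nefl* was at 8.18 CPM (131 UMIs) in the GFP+ and 417 CPM in the GFP− library, 50.9-fold higher (95% interval 42.9 to 60.9). *Mapt* was at 3.25 and 164 CPM, a ratio of 50.4 (38.4 to 67.5). Of the 131 *Nefl* UMIs of the GFP+ library, 34 lay in its 4 ganglion cells and 48 in its 3652 cones.

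*Gap43* was at 33.9 CPM in the GFP+ and 998 CPM in the GFP− library (29.5-fold higher) and *Nefm* at 10.4 and 294 CPM (28.3-fold). *Stmn4* differed 9.30-fold, *Stmn2* 4.10-fold and *Stmn3* 3.26-fold. *Ina*, at 211 and 423 CPM, sat at the 2-fold limit with a ratio of 2.00 (1.93 to 2.08). The remaining genes did not follow: *Dcx* was at 49.3 and 54.5 CPM, and *Map1b* was at 1441 CPM in the GFP+ and 821 CPM in the GFP− library, a ratio of 0.57 (0.56 to 0.579). When cells with more than 3500 genes were left out, 6 of the 10 genes were at least 2-fold higher in GFP− cells, beside 14.2% of all genes, and *Map1b* was at least 2-fold lower (0.408, 0.40 to 0.416), as were 21.3% of all genes. Under that limit 2 genes changed sides, *Ina* with a ratio of 0.931 (0.892 to 0.972) and *Dcx* with 0.538 (0.486 to 0.594).

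**Figure D1:**
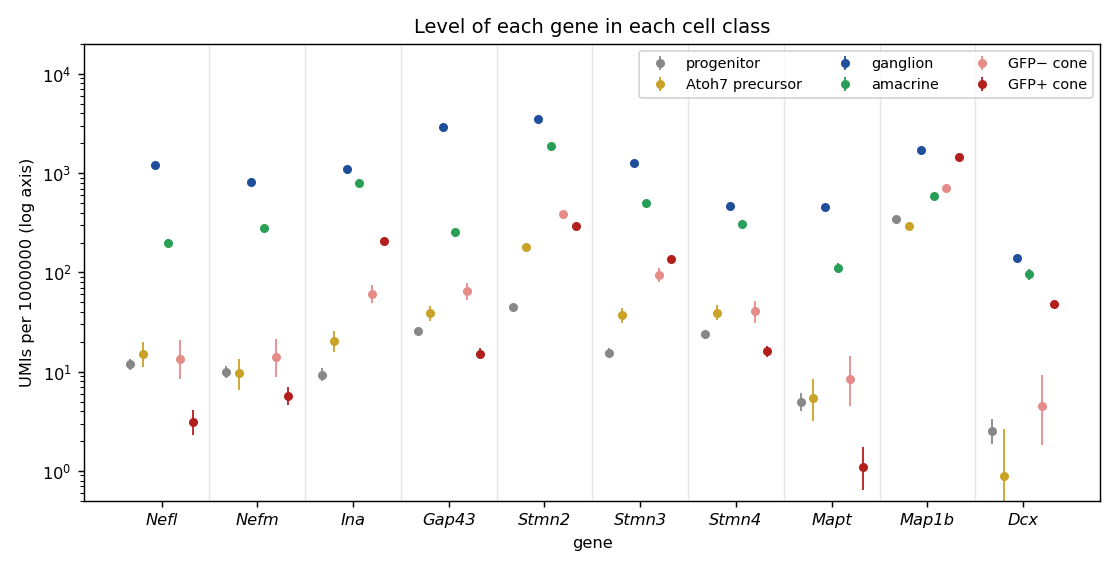
Level of each gene in UMIs per 1000000 (log axis) in the cell classes, with cones split by sort gate; points are UMIs summed over the cells of a class and bars are 95% exact Poisson intervals. Ganglion cells have the highest point for every gene, and *Map1b* is the only gene whose GFP+ cone point (1456) comes near the ganglion point (1718).

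Among the intermediate filament genes, *Nefl* (chr14:68083863-68089095, plus strand) and *Nefm* (chr14:68082590-68124846, minus strand) encode the light and medium neurofilament chains. *Nefl* was at 1194 CPM (1176 to 1211) in ganglion cells, 197 CPM (180 to 216) in amacrine cells, 4.05 CPM (3.15 to 5.12) in cones and 11.9 CPM (10.4 to 13.5) in progenitor cells. *Nefm* was at 810 CPM (796 to 824), 280 CPM (260 to 302), 6.51 CPM (5.35 to 7.84) and 9.88 CPM (8.53 to 11.4) in the same order. The intervals of the neuron classes do not overlap for either gene, and cones of both gates together lay below the progenitor level of both. The GFP− cones alone did not, at 13.5 CPM for *Nefl* and 14.2 CPM for *Nefm*. An alternative *Nefm* transcript and *Nefl* share 1108 exon bases on opposite strands, and the sources used here do not state whether strand was used in counting, so some reads of one could stand under the other.

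*Ina* (chr19:47014698-47025327, plus strand) encodes α-internexin, a neurofilament partner found early in neurons. It was at 1100 CPM (1083 to 1117) in ganglion, 793 CPM (758 to 829) in amacrine and 193 CPM (186 to 199) in cone cells, and at 9.32 CPM (8.01 to 10.8) in progenitor cells. For every 100 *Ina* UMIs there were 182 UMIs of *Nefl* and *Nefm* in ganglion cells, 60.2 in amacrine cells and 4.29 in GFP+ cones. The figure was 45.3 in GFP− cones, on 43 UMIs of both chains, and 25.6 in the GFP− cones with a UMI of the cone gene *Gngt2*, on 11 UMIs. *Ina* overlaps exons of the opposite-strand gene *Nt5c2* over 456 bases.

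*Gap43* (chr16:42248442-42340651, minus strand), the growth cone protein gene, was at 2892 CPM (2865 to 2919) in ganglion, 256 CPM (237 to 277) in amacrine, 19.8 CPM (17.7 to 22.0) in cone and 25.7 CPM (23.5 to 28.1) in progenitor cells. It set ganglion cells apart from amacrine cells more than any other of the 10 genes, with a ratio of 11.3 (10.4 to 12.2).

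Over all cells the stathmin genes were ordered alike, with ganglion cells above amacrine cells and amacrine cells above cones. For *Stmn4* the first of these steps turned when cells with more than 3500 genes were left out, at 259 CPM in ganglion and 327 CPM in amacrine cells. *Stmn2* (chr3:8509360-8561606, plus strand), known for its role in axon growth and repair, was at 3501 CPM (3471 to 3531), 1881 CPM (1828 to 1936) and 304 CPM (295 to 312) in these classes and at 45.3 CPM (42.4 to 48.4) in progenitor cells. *Stmn3* (chr2:181306459-181314500, minus strand) was at 1267 CPM (1250 to 1286), 495 CPM (467 to 523), 132 CPM (127 to 138) and 15.4 CPM (13.7 to 17.2). *Stmn4* (chr14:66344296-66361680, plus strand) was at 468 CPM (457 to 479), 311 CPM (289 to 333) and 18.3 CPM (16.3 to 20.4), and its cone value lay below the 23.7 CPM (21.6 to 26) of progenitor cells. Cones of both gates together thus held *Stmn2* and *Stmn3* above the progenitor level and *Stmn4* below it. In the GFP− cones alone *Stmn4* was at 40.6 CPM, above the progenitor level.

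Of the microtubule-binding proteins, tau is encoded by *Mapt* (chr11:104231390-104332090, plus strand). It was at 459 CPM (449 to 470) in ganglion, 112 CPM (98.8 to 126) in amacrine, 1.76 CPM (1.19 to 2.51) in cone and 4.96 CPM (4.03 to 6.06) in progenitor cells. *Dcx* (chrX:143855842-143933311, minus strand), the doublecortin gene of young migrating neurons, was at 141 CPM (135 to 147), 95.8 CPM (84.0 to 109), 44.4 CPM (41.3 to 47.7) and 2.51 CPM (1.85 to 3.32). *Map1b* (chr13:99421446-99516540, minus strand), one of the earliest microtubule-associated genes of neurons, was at 1718 CPM (1697 to 1739), 585 CPM (555 to 616), 1388 CPM (1371 to 1406) and 342 CPM (334 to 350). *Map1b* was the only gene with more UMIs per 1000000 in cones than in amacrine cells.

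Against cones, 9 of the 10 genes were at least 2-fold higher in ganglion cells and none was lower, while 11.9% of 12265 genes were higher and 23.2% lower. The median log2 ratio was 4.10 for the 10 genes and -0.36 for all genes. The ratios covered a wide range, from 295 (233 to 379) for *Nefl*, 261 (183 to 387) for *Mapt*, 146 (131 to 163) for *Gap43* and 124 (103 to 151) for *Nefm* down to 11.5 for *Stmn2*, 9.60 for *Stmn3*, 5.71 for *Ina*, 3.17 (2.92 to 3.45) for *Dcx* and 1.24 (1.22 to 1.26) for *Map1b*. *Stmn4* lay between them at 25.6 (22.9 to 28.8).

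Amacrine cells were at least 2-fold above cones in 9 of the 10 genes (7.68% of 11412 genes) and below them in *Map1b* (0.421, 0.399 to 0.444; 21.3% of genes were lower). The ratios were 63.4 for *Mapt*, 48.8 for *Nefl* and 43.1 for *Nefm*, and 4.12 for *Ina* and 2.16 (1.86 to 2.5) for *Dcx*. The median log2 ratio of all genes was -0.26.

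Ganglion cells were at least 2-fold above amacrine cells in 6 of the 10 genes, beside 10.4% of 10892 genes and a median log2 ratio of -0.10 over all genes. These were *Gap43*, *Nefl* (6.05, 5.53 to 6.63), *Mapt* (4.12, 3.65 to 4.66), *Map1b* (2.94), *Nefm* (2.89) and *Stmn3* (2.56). *Stmn2* (1.86), *Stmn4* (1.51), *Dcx* (1.47) and *Ina* (1.39, 1.32 to 1.45) were higher in ganglion cells by less than 2-fold, with intervals that exclude equal levels over all cells. The count depended on the largest cells. With cells over 3500 genes left out, 3 genes (*Gap43*, *Nefl* and *Map1b*) passed the limit, beside 6.89% of all genes, and *Ina* (0.758, 0.716 to 0.802) and *Stmn4* (0.793, 0.725 to 0.867) were lower in ganglion than in amacrine cells. The interval of *Dcx* then included equal levels (0.945, 0.805 to 1.11). Ganglion and amacrine cells were not matched for stage, and what stage adds to these ratios was not tested.

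**Figure D2:**
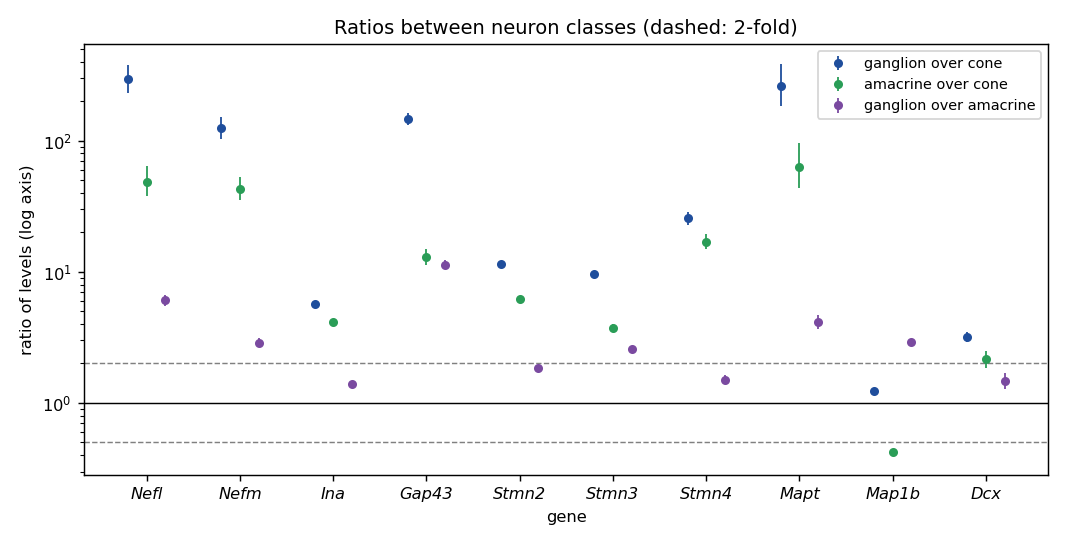
Ratio of levels (log axis) for each gene between ganglion, amacrine and cone cells, with 95% exact conditional intervals; the solid line is equality and the dashed lines are 2-fold. *Nefl* and *Mapt* have the highest ganglion over cone ratios (295 and 261), and *Map1b* has the lowest (1.24) and the only amacrine over cone ratio below 1.

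Progenitor cells, which have no axon, were taken as a reference for each gene. They came almost wholly from the GFP− library, so they are no measure of free RNA in the GFP+ library, which gave most of the cones. All 10 genes were at least 2-fold higher in ganglion cells than in progenitor cells (15.8% of 12080 genes), from 5.02 (4.89 to 5.16) for *Map1b* to 118 (102 to 137) for *Ina*. Relative to the ganglion cells without an *Atoh7* UMI, the progenitor level was between 0.678% and 1.41% for 8 of the genes, but 3.85% for *Stmn4* and 21.2% for *Map1b*. Cones were at least 2-fold above progenitor cells in 5 genes, which were *Ina* (20.7-fold), *Dcx* (17.7-fold), *Stmn3* (8.57-fold), *Stmn2* (6.70-fold) and *Map1b* (4.06-fold), beside 25.8% of all genes. They were at least 2-fold below them in *Nefl* and *Mapt*, beside 13.3% of all genes. The GFP− cones alone were not below progenitor cells in these genes, at 13.5 CPM for *Nefl* and 8.37 CPM (13 UMIs) for *Mapt*.

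Shares of cells with a UMI were compared after every cell had been thinned to 3200 UMIs, which 574 cones, 9 progenitor cells, 2 ganglion cells and 1 amacrine cell did not reach. Before thinning, the median depth was 13158 UMIs in ganglion, 6750 in amacrine, 3950.5 in cone and 9769.5 in progenitor cells. *Stmn2* was found in 84.9% of ganglion cells (82.7% to 86.9%), 96.2% of amacrine cells (93.6% to 98.0%), 48.3% of cones and 12.2% of progenitor cells. It was the only gene whose share was clearly above that of ganglion cells in amacrine cells, although its level there was lower. In the ganglion cells with an *Isl1* UMI the share of *Stmn2* was 93.1% (91.3% to 94.5%), and this interval overlapped that of amacrine cells. *Nefl* was found in 62.0% of ganglion cells, 33.8% of amacrine cells, 1.0% of cones (0.691% to 1.40%) and 4.17% of progenitor cells. The cone share of *Nefl* lay below that of progenitor cells, as did those of *Nefm* (1.94%), *Gap43* (4.04%), *Stmn4* (3.43%) and *Mapt* (0.456%), although the free RNA of the GFP+ library was not measured. Of the 3292 thinned cones, 3084 came from that library. *Ina* (38.4% of cones against 3.39% of progenitor cells), *Stmn3* (32.4% against 5.26%) and *Dcx* (13.1% against 0.886%) were above the progenitor share. *Map1b* was found in 94.9% of cones and 64.1% of progenitor cells.

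Of the 10 genes, a thinned ganglion cell held a median of 8, an amacrine cell 5, a cone 2 and a progenitor cell 1. With cells over 3500 genes left out, the median was 5 in ganglion as in amacrine cells. Cells of the ganglion class differed widely among themselves. The class included the 125 cells without *Isl1*, whose thinned medians were 0 UMIs for *Gap43* and *Stmn2*, against 9 and 12 with *Isl1*. At least 8 genes were found in 638 of the 1133 cells (56.3%), while 37 held none. In 3292 cones the highest number was 7, and no progenitor cell held more than 5.

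**Figure D3:**
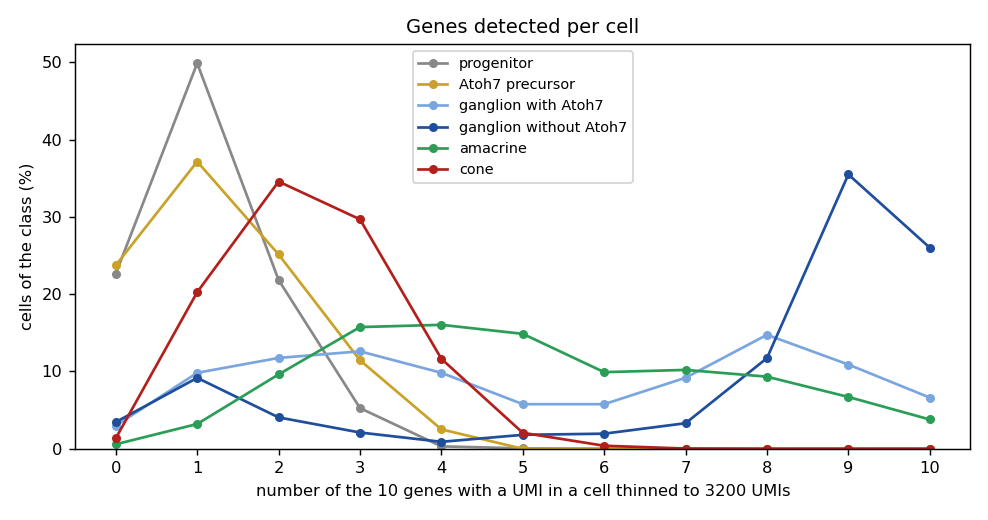
Percentage of the cells of each class (y axis) by how many of the 10 genes had at least 1 UMI after thinning to 3200 UMIs (x axis). Ganglion cells without *Atoh7* gather at 9 genes (median 9), with a smaller peak at 1 gene (9.17% of them). Those with *Atoh7* are spread over the axis (median 5), and cones gather at 2.

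*Atoh7* is switched on as progenitors leave the cell cycle and falls as ganglion cells mature, so it was used to order cells. The precursors cannot be read as a stage of the ganglion path alone. By their rule they held at most 1 ganglion marker, and the ganglion markers summed to 66.2 CPM, beside 54.8 CPM in progenitor cells. Their cone markers summed to 315 CPM, against 12.6 CPM in progenitor cells. Amacrine and horizontal cell markers summed to 103 and 131 CPM, against 3.99 and 5.73 CPM. In the 360 *Atoh7* precursors, 3 of the 10 genes were at least 2-fold above progenitor cells (4.31% of 11078 genes). These were *Stmn2* (178 against 45.3 CPM, a ratio of 3.94 with interval 3.54 to 4.37), *Stmn3* (2.41) and *Ina* (2.19, 1.63 to 2.90). *Stmn4* (1.65, 1.35 to 2.01) and *Gap43* (1.51, 1.24 to 1.84) were higher by less than 2-fold. *Nefl* (1.26), *Nefm* (0.97), *Mapt* (1.09) and *Map1b* (0.858) lay near the progenitor level, and *Dcx* had 3 UMIs (ratio 0.358, 0.0714 to 1.11).

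The 468 ganglion cells with an *Atoh7* UMI were at least 2-fold above the precursors in all 10 genes, beside 11.9% of all genes, from 5.88 (4.91 to 7.09) for *Stmn4* to 58.3 (41.2 to 85.4) for *Nefm* and 90.9 (30.9 to 442) for *Dcx*. Compared with them, the 667 ganglion cells without an *Atoh7* UMI were at least 2-fold higher in 7 genes and lower in none, while 5.38% of 10522 genes were higher and 1.87% lower. The ratio was 2.90 (2.72 to 3.08) for *Mapt*, 2.67 for *Stmn4*, 2.42 for *Nefl*, 2.18 for *Dcx*, 2.17 for *Gap43*, 2.15 for *Stmn3* and 2.07 (2.00 to 2.15) for *Ina*. *Nefm* (1.73) and *Stmn2* (1.40) were higher by less. *Map1b* was lower, at 1614 CPM without and 1885 CPM with *Atoh7* (0.856, 0.835 to 0.878). Median depth differed between these cells as well, at 13903 UMIs without and 11880 UMIs with *Atoh7*.

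The ganglion cells without *Atoh7* were not uniform. Of their 665 thinned cells, 487 held at least 8 of the 10 genes, but 61 held 1 and 23 held none. How far these few-gene cells are those without *Isl1* was not tested. Expressed as a percentage of the level without *Atoh7*, the cells with *Atoh7* stood at 117% for *Map1b*, 71.2% for *Stmn2* and 57.8% for *Nefm*. *Mapt* (34.5%), *Stmn4* (37.4%) and *Nefl* (41.3%) had the lowest percentages. By counting error alone, which leaves out differences between cells, the intervals of *Map1b*, *Stmn2* and *Nefm* overlapped no other gene's. Those of *Mapt* (32.4% to 36.7%) and *Stmn4* (35.2% to 39.7%) overlapped each other, and *Ina* (48.3%), *Stmn3* (46.6%), *Gap43* (46.1%) and *Dcx* (45.9%) could not be told apart by theirs. Under the other settings described at the end, log2 ratios without over with *Atoh7* moved further. They ran from 0.697 to 0.989 for *Nefm* and 0.960 to 1.39 for *Ina*, which overlap. *Nefl* (1.18 to 1.67) and *Mapt* (1.44 to 1.96) overlapped as well. Each range was taken for its gene alone, and whether the order changed within a setting was not examined. The order of such neighbours is therefore not settled here.

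**Figure D4:**
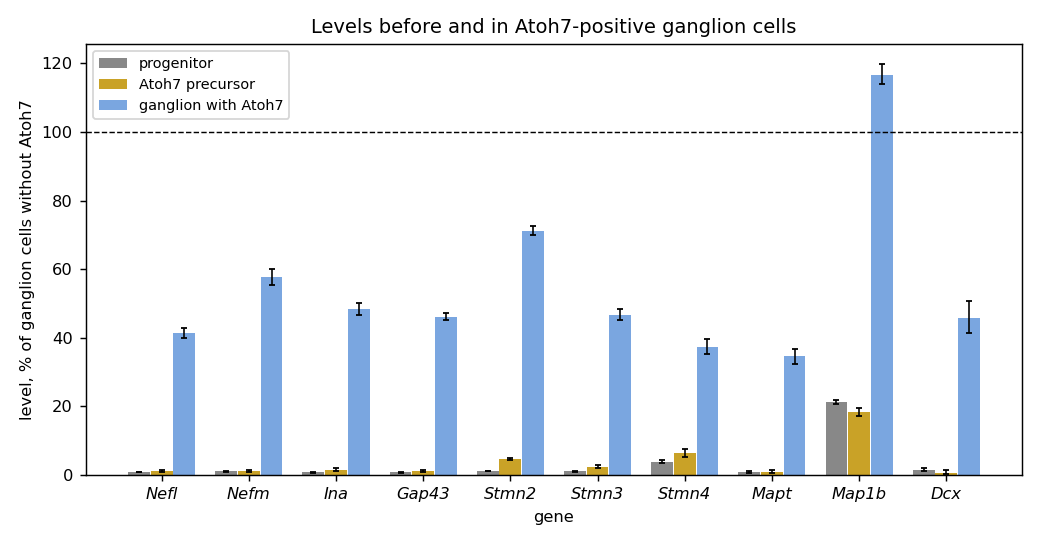
Level of each gene in progenitor cells, *Atoh7* precursors and ganglion cells with *Atoh7*, as a percentage of its level in ganglion cells without *Atoh7* (dashed line, 100%), with 95% exact conditional intervals. The precursors reach at most 18.2% (*Map1b*), and *Map1b* alone passes 100% in ganglion cells with *Atoh7* (117%).

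The ganglion class was then split by *Isl1*, a choice made after the values had been seen. All 10 genes were at least 2-fold lower in the 125 cells without an *Isl1* UMI than in the 1010 cells with one, beside 17.8% of all genes. *Nefl* was at 95.7 CPM without and 1321 CPM with *Isl1*, and *Map1b* at 429 and 1868 CPM. The cells without *Isl1* carried the progenitor markers described above at 4050 CPM, against 375 CPM in the cells with it. Leaving them out raised the number of genes at least 2-fold above amacrine cells from 6 to 7 and left the counts at 9 against cones and 7 between ganglion cells without and with *Atoh7*. The same counts (7, 9 and 7) were found without the 242 ganglion-class cells that held at least 3 progenitor markers, a group that included all 23 ganglion-class cells called as doublets. For both exclusions the share of all genes past the limit is not given here, so these counts cannot be set beside it.

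Amacrine cells differed among themselves in a similar way, in a split also chosen after the values had been seen. The 52 amacrine cells with a UMI of *Lhx1*, a horizontal cell factor, were at least 2-fold above the other 292 in 7 of the 10 genes, beside 3.03% of 5702 genes. *Dcx* was at 277 CPM with and 66.7 CPM without *Lhx1* (4.15, 3.16 to 5.42), *Mapt* at 314 and 78.9 CPM (3.99, 3.10 to 5.11) and *Nefl* at 512 and 147 CPM (3.50, 2.89 to 4.22). *Stmn3* (1.88), *Stmn2* (1.62) and *Map1b* (1.58) were higher by less than 2-fold. The horizontal cell markers summed to 1866 CPM in the cells with *Lhx1*, a list that includes *Lhx1* itself, and to 860 CPM in the others. Progenitor markers summed to 105 CPM with *Lhx1* and 488 CPM without. A split by *Ptf1a*, one of the amacrine markers, was also chosen after the values had been seen. The 29 cells without it were at least 2-fold above the 315 with it in 6 of the 10 genes, beside 3.30% of 5702 genes. The 10 genes summed to 8687 CPM without *Ptf1a* and to 4685 CPM with it. How far these splits share cells was not tested. Without the cells that held *Lhx1*, ganglion cells were at least 2-fold above amacrine cells in 8 genes. The share of all genes under that exclusion is not given here.

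Cones of the 2 gates were not alike. In GFP+ cones, 3 genes were at least 2-fold higher than in GFP− cones (19.9% of 11073 genes) and 4 were lower (6.01%), and *Mapt* had too few UMIs to be placed. All genes had a median log2 ratio of 0.25. Higher in GFP+ cones were *Dcx* (48.4 against 4.51 CPM, 10.7-fold, 5.18 to 26.8), *Ina* (206 against 61.2 CPM, 3.36-fold, 2.74 to 4.17) and *Map1b* (1456 against 708 CPM, 2.06-fold). Lower were *Nefl* (3.10 against 13.5 CPM), *Gap43* (15.2 against 65.0 CPM), *Stmn4* (16.1 against 40.6 CPM) and *Nefm* (5.74 against 14.2 CPM). The progenitor cells, of which 1917 of 1928 came from the GFP− library, were at 11.9 CPM for *Nefl* and 9.88 CPM for *Nefm*, close to the GFP− cones, but at 25.7 CPM for *Gap43* and 23.7 CPM for *Stmn4*, below them. *Gngt2*, a cone transducin gene, had a UMI in 50 of the 214 GFP− cones, and with only *Gngt2*-positive cones compared, the only gene higher in GFP+ cones was *Dcx* (18.6% of genes), on 3 UMIs in the GFP− cones. The same 4 genes were lower (4.15% of genes), on 4 UMIs of *Nefl*, 7 of *Nefm*, 12 of *Stmn4* and 17 of *Gap43* in the GFP− cones, with *Ina* at 1.29 (0.955 to 1.79) and *Map1b* at 1.17 (1.05 to 1.30). What the libraries' depth and free RNA add to these differences was not tested.

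Among ganglion cells, amacrine cells and GFP+ cones, the 10 genes had the highest median correlation over ganglion cells. Correlations of log(1 + UMIs) over 1133 thinned ganglion cells had a median r of 0.60 over 45 pairs. The highest was between *Gap43* and *Stmn3* (0.84), followed by *Ina* and *Gap43* (0.83), and the lowest was between *Map1b* and *Dcx* (0.15). In 343 amacrine cells the median r was 0.32, with the highest between *Nefl* and *Nefm* (0.61). In 3084 GFP+ cones the median r was 0.013 and the highest, between *Gap43* and *Stmn4*, was 0.21, and such weak values in sparse counts were not read as a relation. Over all 4416 thinned GFP− cells, which mix the classes, the median r was 0.665. These values describe cells that share a library and a fixed number of UMIs, and the ganglion class includes the cells without *Isl1*.

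**Figure D5:**
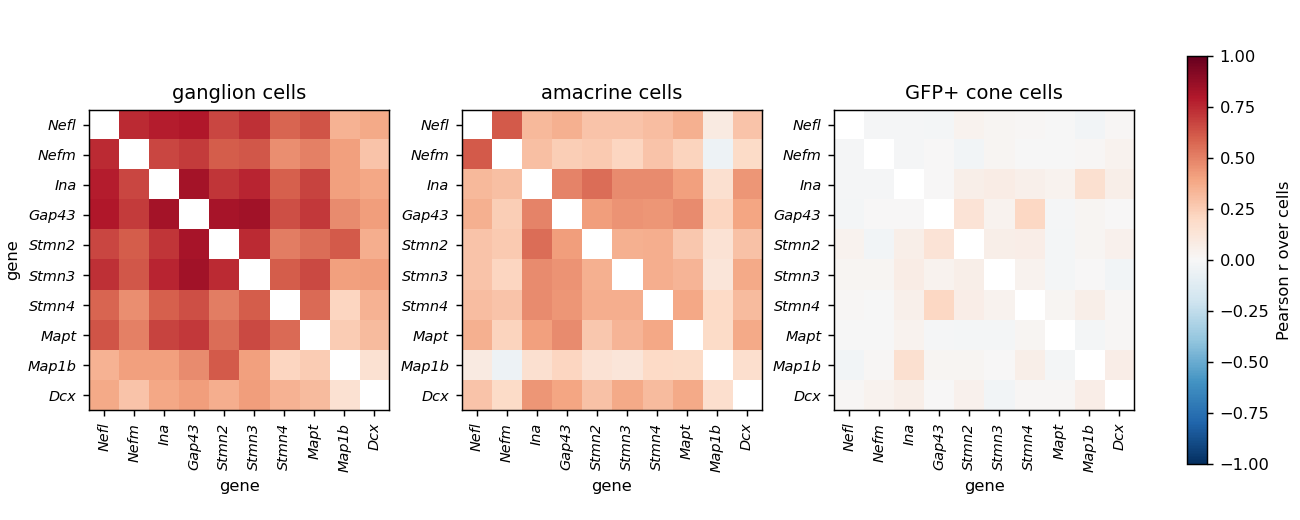
Pearson r of log(1 + UMIs) for each pair of the 10 genes over thinned ganglion, amacrine and GFP+ cone cells, with color from -1 (blue) to 1 (red). Ganglion cells have a median r of 0.60, amacrine cells of 0.32 and GFP+ cones of 0.013.

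Other genes were picked by their correlation with the 10 genes over the GFP− cells, which mix the classes. Among 6267 genes with a UMI in at least 5% of 4416 thinned cells, the 8 with the highest r to the summed UMIs of the 10 genes were *Rtn1* (0.85), *Tubb2b* (0.82), *Tmsb10* (0.82), *Tubb3* (0.81), *Tuba1a* (0.79), *Mllt11* (0.79), *Ebf1* (0.77) and *Sncg* (0.75). *Tubb2b*, *Tubb3* and *Tuba1a* encode the tubulins that form the microtubules, and *Sncg*, γ-synuclein, was itself used to set the ganglion class. *Tubb3* was at 81.4 CPM in progenitor cells, 948 CPM in *Atoh7* precursors and 5472 CPM in ganglion cells. Among the 10 genes, *Stmn2* had the highest r to the sum of the other 9 (0.86) and *Dcx* the lowest (0.51).

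A further list of 43 axon and growth cone genes was compared between ganglion cells and cones. Of these, 21 were at least 2-fold higher in ganglion cells, 2 were lower and 20 lay within 2-fold, beside the 11.9% and 23.2% of all genes given above. The median log2 ratio of the list was 0.97. By group, 5 of 11 microtubule-associated genes were higher, 3 of 5 collapsin response mediators, 3 of 5 growth cone membrane genes, 3 of 8 kinesins, 2 of 4 actin regulators, 2 of 4 intermediate filament genes and 1 of 4 genes of the spectrin skeleton, together with *Stmn1* and *Uchl1*. Against amacrine cells, 7 of 42 list genes with enough UMIs were at least 2-fold higher in ganglion cells and 2 were lower. Over all genes these shares were 10.4% and 5.77%. Amacrine cells were at least 2-fold above cones in 15 of 42 list genes and below them in 3, beside 7.68% and 21.3% of all genes.

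*Prph*, the intermediate filament peripherin, had 86 UMIs in ganglion cells and none in cones. The exact interval of its ratio began at 25.8. *Rtn1*, a reticulon of the endoplasmic reticulum, differed 30.2-fold (28.4 to 32.1), and the kinesin heavy chains *Kif5c* and *Kif5a*, which carry cargo along axons, 13.3-fold and 8.28-fold. *Map6*, which stabilizes microtubules, differed 12.8-fold and the ubiquitin hydrolase *Uchl1* 10.7-fold. Not all of these differences were particular to ganglion cells. Amacrine cells were above cones 19.8-fold in *Rtn1*, 14.2-fold in *Kif5c* and 9.19-fold in *Kif5a*. The ganglion over amacrine ratios of these genes were 1.52, 0.934 and 0.901. For *Map6* and *Uchl1* they were 3.42 and 3.29, and *Prph* had no UMI in amacrine cells. *Map7*, a kinesin-binding protein, was lower in ganglion cells than in cones (9.53 against 30.7 CPM, 0.31). So was *Nefh*, the heavy neurofilament chain, which had only 20 UMIs in ganglion cells and 57 in cones (0.396, 0.225 to 0.67). *Dpysl3* (0.609), *Mapre3* (0.766), *Marcks* (0.84) and *Ank3* (0.85) lay below 1 within the 2-fold limit. Transcripts of the light and medium neurofilament chains were therefore present in ganglion cells at E14.5, with that of the heavy chain near the limit of counting, at 1.32 CPM. Protein was not measured.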

How the data were processed

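Per the labels and the study's methods, libraries were made with 10x Chromium 3′ chemistry from 1 sorted suspension. The authors deposited unnormalized UMI counts per gene and cell from Cell Ranger 2.1.1 (mm10 reference, filtered barcodes). The deposited counts were summed over cells without normalization beyond UMIs per 1000000.

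Kept cells had at least 250 genes and less than 0.25 of their UMIs from mitochondrial genes, a limit that the study prints as a percentage. Its upper limit of 3500 genes was an alternative. Ganglion, amacrine and cone cells needed at least 2 marker genes and 3 UMIs of their own list and at most 1 marker of each other list. Progenitor cells needed 3 markers and fewer than 2 *Atoh7* UMIs. *Atoh7* precursors needed at least 2 *Atoh7* UMIs, no neuron class and at most 1 ganglion marker. *Rbpms*, *Rbpms2* and *Sncg* stood beside *Pou4f1*, *Pou4f2*, *Pou4f3* and *Isl1* in the ganglion list. Scrublet (expected rate 0.03) called 4 GFP+ cells (0.107%) and 45 GFP− cells (1.01%) as doublets, which were left in. The GFP+ share is low, and doublets within a type are not found this way.

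Sums carry 95% exact Poisson intervals, ratios exact conditional intervals and shares Clopper-Pearson intervals. A gene with at least 50 UMIs over both groups was called at 2-fold. The intervals and calls were tested on Poisson counts drawn with known ratios, and thinning on random counts. These counts held no differences between cells or libraries, so the test does not cover them. The members and lists were chosen with earlier results of these data known. The genes named were the 10 members, the 6 highest and 6 lowest ratios of the further list, and the 8 genes most correlated with the members. Gene positions came from GENCODE M21 (GRCm38). Python 3.11.15, numpy 2.4.6, scipy 1.17.1, scanpy 1.11.5, Biopython 1.88 and edgeR 4.0.16 (TMM factors only, in R 4.3.3) were used.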

Additional observations from a re-analysis of the deposited data

How the results depend on the processing

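Under 14 other settings and 4 more chosen after seeing the data (cells with *Lhx1*, cells without *Isl1*, cells with 3 progenitor markers, or barcodes shared by both libraries left out), counts and medians stayed within 1.5 times their value in 139 of 146 comparisons with the values reported, and 7 moved further. With cells over 3500 genes left out, 3 genes instead of 6 were at least 2-fold above amacrine cells in ganglion cells, the median number of genes detected in a ganglion cell was 5 instead of 8, and the log2 ratio of *Ina* between GFP− and GFP+ cells turned from 1.0 to -0.10. At a 3-fold limit the counts were 3 instead of 6 for ganglion over amacrine cells, 0 instead of 7 for ganglion cells without over with *Atoh7*, and 12 instead of 21 for the further list. With cones set without *Otx2*, *Crx* and *Prdm1*, 1 gene instead of 3 was higher in GFP+ than in GFP− cones. For the 3-fold limit and for these cones the share of all genes is not given here, so the counts cannot be set beside it. Without thinning, the median in progenitor cells was 2 instead of 1. Except for the effect of the 3-fold limit, which follows from its construction, the cause was not tested. Of the 780 ratios of single genes under these settings, 553 stayed inside their counting interval and 7 crossed equal levels. With cells over 3500 genes left out, 5 did so: *Ina* and *Dcx* between the gates, and *Ina*, *Stmn4* and *Dcx* between ganglion and amacrine cells. The other two were *Dcx* between the gates, from a log2 ratio of 0.14 to -0.13 with a mean over cells and to -0.17 after thinning.

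No paired analysis was possible because each gate has 1 library. Low counts limit *Nefl*, *Nefm* and *Mapt* in cones (69, 111 and 30 UMIs) and *Dcx* in GFP− cones (7 UMIs).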
